A study of Mus musculus with 4 samples.

Results

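Peaks of N6-methyladenosine (m6A) in internal exons, those that are neither the first nor the last exon of a transcript, were examined in macrophages with and without the writer gene Mettl3. They were taken as the rows of the deposited peak lists whose annotation named an exon with a number above 1 and below the transcript's exon count. This gave 4694 of 37740 listed peaks, 2615 of 21031 in KO and 2079 of 16709 in WT. The differential table held 572 such peaks of 6050. The exon number came from the annotation, but the members were called peaks, all with a p of at most 0.05. The label also depends on how far a called peak reaches, so the same bases can carry different labels in KO and WT.

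The cells were macrophages of C57BL/6 mice, grown from bone marrow with macrophage colony-stimulating factor for 7 days. KO cells carried floxed Mettl3 alleles together with a Cre recombinase driven by the lysozyme gene, which acts in myeloid cells, and WT cells carried the floxed alleles without Cre. For each genotype, 1 library was made from RNA fragments pulled down by an m6A antibody (IP) and 1 from the input RNA, 4 libraries in all. With 1 library per group, no difference between KO and WT has a replicate check, and no test of one was run here. False discovery rates quoted for differences are the authors' own. With 1 library per group they cannot reflect the spread between animals or cultures. The number of animals and the floxed exons are not given in the sources used here. Of 7 macrophage markers, the 4 with a listed input level (Adgre1, Cd68, Fcgr1 and Lyz2) stood between 58.4 and 6615 FPKM in KO and between 40.6 and 10530 FPKM in WT. Of the markers of other cell types, only the neutrophil gene S100a8 had a level there, at 46.4 FPKM in KO and 77.7 FPKM in WT. Levels were listed only for genes with a differential peak. A marker without a level may thus still be expressed, and the missing markers say nothing about other cell types. Mettl3 itself had 1 peak in the KO list, of 1.35-fold in the 3′ UTR, none in the WT list and no listed input level, so its loss could not be checked from these files. The read depth of the libraries is unknown, since no file used here gives read totals.

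As background, m6A is written on nascent messenger RNA by a complex whose catalytic subunit is METTL3, mostly at adenosines within short motifs such as GGAC. The mark lies mainly near stop codons, in 3′ UTRs and in unusually long internal exons. Exon junction complexes, which splicing leaves near the ends of exons, are known to keep the writer away from the short exons that make up most coding sequence. An internal exon peak therefore most often sits in coding sequence, and the length of its exon is the feature by which such sites are usually described.

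Sequence of a few internal exon peaks could be read where a RefSeq promoter window or miRNA hairpin of the same build (GRCm38.p6) lay inside the exon. Such a window touched 22 KO and 17 WT peaks. The stretches shown are those of at least 80 bases in a named protein-coding gene with a peak p of at most 1e-10 in at least 1 list. They show what these exons hold at the peak, written 5′ to 3′ on the mRNA strand, with every GGAC in capitals.
Ciita, chr16:10518498-10518607, plus strand: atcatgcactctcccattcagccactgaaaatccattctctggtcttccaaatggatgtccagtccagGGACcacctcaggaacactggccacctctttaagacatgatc
Pcnt, chr10:76388852-76389064, minus strand: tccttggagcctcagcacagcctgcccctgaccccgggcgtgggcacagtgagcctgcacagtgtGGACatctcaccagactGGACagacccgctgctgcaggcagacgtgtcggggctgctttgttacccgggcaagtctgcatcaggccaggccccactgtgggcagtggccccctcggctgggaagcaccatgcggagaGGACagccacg
Foxo3, chr10:42274877-42275059, minus strand: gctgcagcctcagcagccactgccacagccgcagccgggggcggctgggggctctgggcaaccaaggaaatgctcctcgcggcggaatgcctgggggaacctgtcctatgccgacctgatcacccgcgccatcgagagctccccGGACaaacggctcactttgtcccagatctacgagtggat
Slfn5, chr11:82960632-82960728, plus strand: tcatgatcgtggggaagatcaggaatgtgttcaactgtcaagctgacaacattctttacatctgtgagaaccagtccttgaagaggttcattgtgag
Chpf2, chr5:24592114-24592211, plus strand: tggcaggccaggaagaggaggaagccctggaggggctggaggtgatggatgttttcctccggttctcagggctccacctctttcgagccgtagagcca

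GGAC occurred 3 times in the Pcnt stretch, once each in those of Ciita and Foxo3 and not in those of Slfn5 and Chpf2. Over all stretches of at least 50 bases, it was present on the mRNA strand in 8 of 15 in KO and 9 of 12 in WT, and on the opposite strand in 6 of 15 in KO and 5 of 12 in WT. The 15 in KO count a Vsig10l stretch and also a shorter one inside it. Only the longer of these holds GGAC on the mRNA strand. For scale, 65.6% of all 32851 RefSeq promoter windows, which are 300 bases long, and 24.5% of 1005 miRNA hairpins hold it on their own strand. These stretches are short parts of the peaks, so a match or its absence says nothing about the rest of the exon. Ciita encodes the master activator of MHC class II genes. Its peak had the authors' enrichment of 12.4-fold over input in the KO list and 37.8-fold in the WT list, the eighth of the WT peaks ranked below. Each list's enrichment is relative to its own input and was not compared between lists. In the authors' deposited table, the part of that peak tested in both genotypes had a log2 ratio of KO over WT of -0.56. Pcnt encodes pericentrin, a scaffold of the centrosome, and its differential peak stood at -0.79 in the authors' deposited table. Foxo3, a transcription factor of stress responses, had an internal exon peak of 2.62-fold in WT, while the KO peak that spans the same bases also reaches other exons and was annotated to the 3′ UTR. The Chpf2 peak, 5.38-fold in KO and 11.9-fold in WT, covers exactly the hairpin of Mir671, which lies in exon 4 of 5 of Chpf2, a chondroitin-polymerizing gene, and the authors assigned it to the miRNA.

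Internal exons held 12.4% of all peaks in both genotypes, with exact 95% binomial intervals of 11.99% to 12.9% in KO and 11.9% to 13.0% in WT. These ranges, and all that follow in parentheses, reflect the number of peaks counted and treat each peak as independent. The peaks lay in exons of 1869 genes in KO and 1538 in WT, which were 15.8% of the genes with any peak in KO and 15.4% of those in WT. Of these genes, 902 had an internal exon peak in both lists, 48.3% of those in KO and 58.6% of those in WT. Most had a single one, 1402 genes in KO and 1181 in WT, while 162 genes in KO and 110 in WT had 3 or more. The authors assigned 83.7% of the KO peaks and 84.8% of the WT peaks to the gene of the named exon, and the others to another gene.

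By median enrichment, internal exon peaks were the weakest annotation class within each list. Their median enrichment was 2.53-fold in KO (quartiles 1.71 and 5.12) and 2.85-fold in WT (quartiles 1.83 and 5.61). In KO the other medians ran from 2.95-fold in 3′ UTRs to 5.90-fold in single-exon transcripts, and in WT from 3.57-fold to 6.12-fold in the same classes. A false discovery rate under 0.05 was reached by 52.9% of the KO internal exon peaks and 60.6% of the WT ones, against 64.9% of all KO peaks and 70.2% of all WT peaks. A p of at most 1e-10 was reached by 14.4% in KO and 20.4% in WT, against 24.5% of all KO peaks and 30.8% of all WT peaks. By these shares internal exons were not the lowest class. A false discovery rate under 0.05 was reached by 47.9% of last exon peaks in KO and 56.2% in WT, and a p of at most 1e-10 by 10.2% of them in KO and 10.3% in WT.

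The exons named were spread along the transcript. The median peak lay in exon 6 of a transcript of 13 exons in both lists, and the longest transcript named had 146. Exon 2 held 17.5% of the KO peaks (16.04% to 19.0%) and 18.3% of the WT peaks (16.7% to 20.1%), where an even spread over the internal exons of the same transcripts would give 15.7% in KO and 16.05% in WT. The penultimate exon held 14.7% in KO (13.4% to 16.1%) and 13.7% in WT (12.2% to 15.2%). Most of these peaks cover several exonic blocks, yet each carries a single exon number. The same Ciita block of 2154 bases lies in a peak labelled exon 8 in KO and in a peak labelled exon 2 in WT. The even spread takes no account of this, and the part of labelling in these shares was not tested. Peaks at these edges of the definition can be set beside those just outside it. In KO, median enrichment was 2.84-fold in exon 2, 2.66-fold in the penultimate exon, 4.72-fold in first exons and 3.84-fold in last exons. In WT the same medians were 2.98-fold, 3.74-fold, 4.97-fold and 4.08-fold.

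The peaks also differed in the length of exon they covered. A peak that crosses introns is listed as exonic blocks, so its longest block is a lower bound for the length of an exon in it. The median longest block was 239 bases in KO (quartiles 135 and 480) and 282 bases in WT (quartiles 151 and 601.5), and 44.9% of the KO peaks and 44.4% of the WT peaks lay in a single block. Where the longest block had at most 100 bases, median enrichment was 1.61-fold over 362 KO peaks and 1.70-fold over 217 WT peaks. Above 400 and up to 800 bases it was 4.18-fold over 451 KO peaks and 3.82-fold over 423 WT peaks. Above 1600 bases it was 7.35-fold over 89 KO peaks and 8.16-fold over 86 WT peaks. The share with a p of at most 1e-10 was 0.55% in KO and 0.92% in WT for the shortest blocks, and 54.8% in KO and 63.2% in WT above 800 and up to 1600 bases. Longer peaks hold more reads, so block length and p are not independent, and 3′ UTR peaks showed the same order, from 1.72-fold to 10.6-fold in KO and from 1.65-fold to 13.0-fold in WT.

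Blocks flanked on both sides by other blocks of the same peak give whole exons. All 321 KO blocks of this kind that overlapped one in WT had the same start and end there. Their median length was 124 bases over 1088 blocks in KO and 127 bases over 962 blocks in WT. The longest whole block of a peak exceeded 400 bases in 41.8% of the 153 such KO peaks with a p of at most 1e-10 (33.9% to 50.1%), against 6.31% of the 317 KO peaks with a p above 0.001 (3.90% to 9.58%). In WT the corresponding shares were 51.3% of 199 peaks (44.1% to 58.4%) and 6.07% of 214 peaks (3.27% to 10.2%). By this measure a long exon was covered more often by strong peaks than by weak ones in both lists. A peak that contains a long exon also holds more reads, so length and p are not independent here either. The strong peaks held 332 whole blocks in KO and 465 in WT, and the weak ones 531 in KO and 340 in WT. The longest was thus taken over more blocks per strong peak, and what these points add was not tested.

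**Figure D1:**
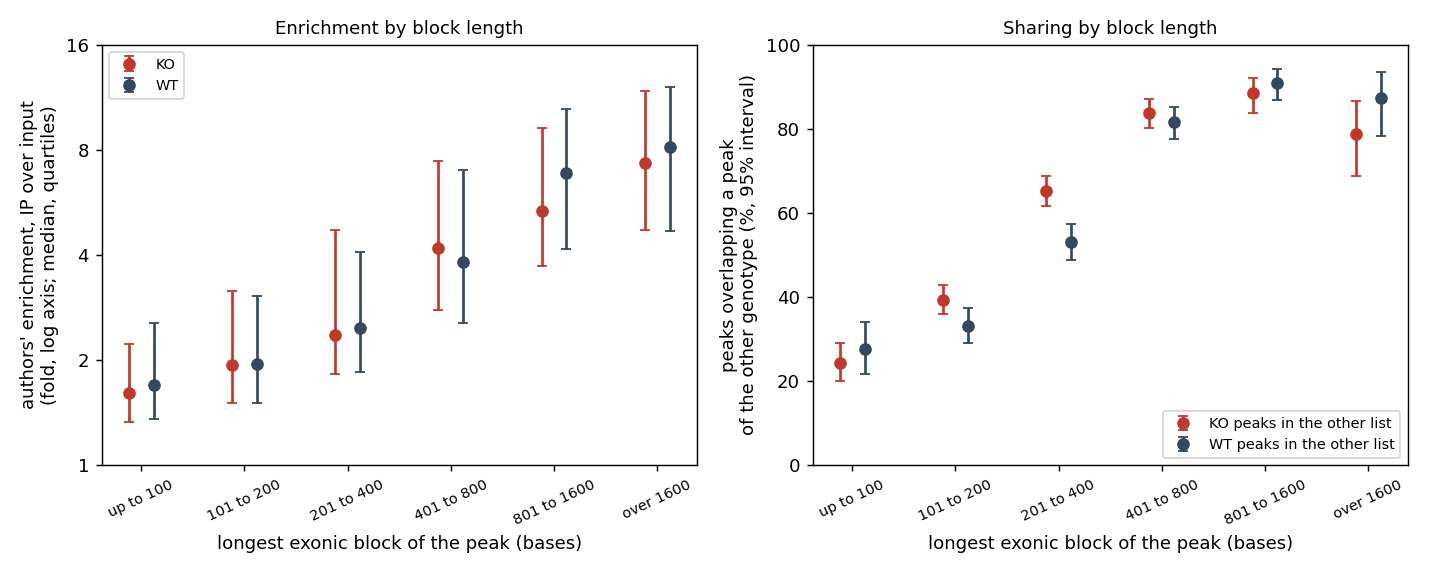
Left, the authors' enrichment (fold over input, log axis) and right, the share of peaks that overlap a peak of the other genotype (%), for internal exon peaks by the length of their longest exonic block in bases; KO is red and left of WT, points on the left are medians with quartiles, and points on the right have exact 95% binomial intervals. Median enrichment goes from 1.61-fold to 7.35-fold in KO and from 1.70-fold to 8.16-fold in WT, and sharing from 24.3% to a high of 88.4% in KO and from 27.6% to a high of 91.0% in WT.

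Whether a peak recurred in the other genotype followed the same feature. Of the internal exon peaks, 57.8% in KO shared at least 1 exonic base with a WT peak (55.9% to 59.7%) and 57.4% in WT shared one with a KO peak (55.3% to 59.6%). Over all peaks the shares were 61.6% of the KO list and 73.4% of the WT list, so the interval of the WT internal exon peaks lay below the share of all WT peaks, and also below that of WT 3′ UTR peaks (80.5%, 79.7% to 81.2%). The KO list holds more peaks than the WT list, which raises what a WT peak can meet. Sharing was 24.3% in KO and 27.6% in WT for blocks of at most 100 bases, 83.8% in KO and 81.6% in WT above 400 and up to 800 bases, and 88.4% in KO and 91.0% in WT above 800 and up to 1600 bases. It also rose with block length in 3′ UTR peaks, from 26.3% to a high of 89.6% in KO and from 60.6% to 96.1% in WT. In last exon peaks it went from 30.3% to a high of 89.0% in KO and from 33.8% to 89.2% in WT. Longer peaks offer more bases for the 1 shared base required, and the part of this in the rise was not tested. Of the peaks with a p of at most 1e-10, 98.4% in KO and 97.2% in WT were shared, against 94.4% of all such KO peaks and 98.8% of all such WT peaks, so among these the KO internal exon share was above that of all KO peaks. Among peaks with no partner, 25.7% in KO and 35.0% in WT had a false discovery rate under 0.05, and their median enrichment was 2.36-fold in KO and 2.28-fold in WT.

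The partner peak was not always labelled as an internal exon. Of the 1511 shared KO peaks, 1057 lay with an internal exon peak of WT, 244 with a 3′ UTR peak and 128 with a 5′ UTR peak. Of the 1194 shared WT peaks, 975 lay with an internal exon peak of KO, 110 with a 3′ UTR peak, 52 with a last exon peak and 35 with a 5′ UTR peak. Mcoln3, which encodes a cation channel of endosomes and lysosomes, gives an example. Its peak was 64.6-fold in KO and labelled exon 11 of 12, and a WT peak of 19.5-fold with the same start was labelled as a first exon of another transcript. Of the unshared peaks, 71.9% in KO and 80.7% in WT lay in a gene that had some other peak in the other list.

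The highest enrichments with a p of at most 1e-10 were ranked among peaks that the authors assigned to the gene of the exon, 1 per gene, with predicted genes left out. Peaks outside this ranking reached 164-fold in WT. Alpk1, which encodes a kinase that senses a bacterial sugar nucleotide, was the only gene among the first 8 of both rankings. Its peak in exon 9 of 13 had 37.6-fold in KO and 40.5-fold in WT and no differential internal exon peak in the authors' deposited table. In KO the other ranked genes were Mcoln3, Smarce1 (62.6-fold, a subunit of the SWI/SNF chromatin remodeller), Tulp4 (41.3-fold), Soga1 (35.9-fold), Prag1 (29.1-fold), Ahnak2 (24.8-fold) and Tnrc6b (23.3-fold, a partner of Argonaute in miRNA silencing). In WT they were Blm (73.5-fold, a DNA helicase), Grk2 (71.4-fold, a kinase of G protein-coupled receptors), Pebp1 (70.4-fold, an inhibitor of Raf kinase), Sgo1 (43.9-fold, a protector of centromeric cohesion), Ntng2 (40.3-fold), Bach2os (38.8-fold, an antisense transcript) and Ciita. All of these were shared with the other list, in exonic bases, except the KO peaks of Smarce1 and Tulp4 and the WT peak of Pebp1. No limit on input level was set for this ranking, and a fold over very low input is uncertain. In FPKM, KO input then WT input, Blm had 0.28 and 0.31, Sgo1 0.32 and 0.31, and Prag1 0.60 and 0.59. Others were well above 1 FPKM, such as Pebp1 at 53.1 and 44.3. Tnrc6b covered a block of 2622 bases in both lists, with 23.3-fold in KO and 26.7-fold in WT. The overlap of the 2 rankings also depends on labels. The ranked KO peak of Prag1 lies within a WT peak of 143-fold that was labelled 3′ UTR. That of Ahnak2 lies on a WT peak of 148-fold that was labelled as a single exon. Neither WT peak could enter the WT ranking.

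The longest blocks were ranked in the WT list, among peaks assigned to the gene of the exon. Spen, a transcriptional corepressor needed for X inactivation, had a block of 5497 bases in KO and of 7265 bases in WT, in peaks of 7.29-fold in KO and 13.1-fold in WT. Next to it, the KO list had a separate peak of 1529 bases at 3.57-fold where the WT peak was continuous. Plec, a cytoskeletal linker, was next in that WT ranking, with blocks of 3964 bases in KO and 6213 bases in WT, at 7.35-fold in KO and 12.1-fold in WT. Bod1l, which protects stalled replication forks, had a WT block of 4446 bases at 10.2-fold, and the KO list divided exon 10 of 27 among 6 peaks of 1.88-fold to 6.58-fold. Pkd1, the polycystin-1 gene, had blocks of 3412 bases at 10.6-fold in KO and 3592 bases at 16.5-fold in WT. Skil, a repressor of TGF-beta signalling, had blocks of 2365 bases at 3.54-fold in KO and 4010 bases at 4.08-fold in WT. Dtl had a WT block of 4514 bases whose false discovery rate was 0.229, and no KO peak.

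The genes with the most internal exon peaks, counting those the authors assigned to the gene of the exon, were read in each list. In KO, Bod1l, Cenpe and Dst had 8 each and Cenpf, Kmt2d and Macf1 had 7 each. In WT, Mki67 had 11, Macf1 and Syne2 had 8 each, Crybg3 had 7, and Lcorl, Setd2, Son and Tnrc18 had 5 each. Counts of peaks within one exon are counts of pieces: Bod1l had 8 peaks in KO and 3 in WT, but one differential peak of the authors' deposited table spans 4379 bases of its exon 10. The 8 KO peaks of Cenpe, a kinesin of mitosis, and its 4 WT peaks all had a p of at least 0.00032. Of the 50 genes listed for a very long internal coding exon, 37 had an internal exon peak in KO and 39 in WT, which were 80.4% of the listed genes with any KO peak and 88.6% of those with any WT peak. The same share over all genes was 15.8% in KO and 15.4% in WT. The gene lists used here were chosen with earlier results of these data known. Their genes were not matched to all genes for length or exon number, and the difference was not tested.

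**Figure D2:**
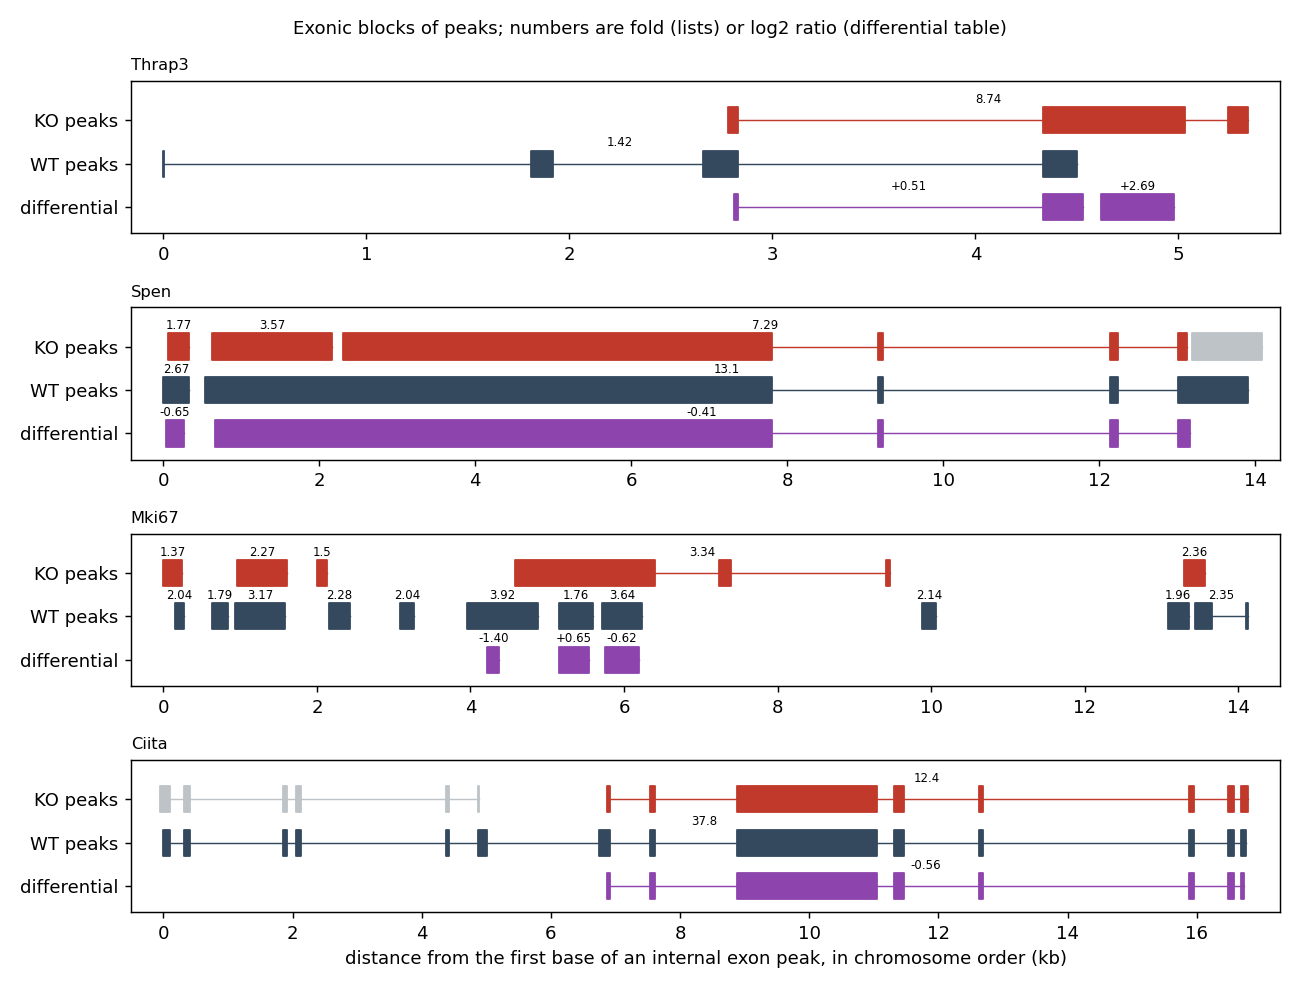
Exonic blocks of peaks in 4 genes, by distance in kb from the first base of an internal exon peak, in chromosome order; the rows are the KO list, the WT list and the differential table, grey blocks belong to peaks with another annotation, and numbers give the authors' fold (lists) or log2 ratio of KO over WT (differential table). In Thrap3 the 8.74-fold KO peak extends past the end of the 1.42-fold WT peak, where the ratio is 2.69, and in Spen and Ciita the same long exon is covered in both lists, with ratios of -0.41 and -0.56.

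Most differential internal exon peaks had less enrichment in KO than in WT. In the authors' deposited table, 521 of the 572 had a ratio below 0 and 51 one above 0, so 91.1% were lower (88.4% to 93.3%), against 69.6% of all 6050 listed peaks. In the authors' deposited table, their median log2 ratio of KO over WT was -0.57 (-0.60 to -0.53), against -0.40 over all listed peaks, so the median internal exon peak stood at 0.674 times its WT enrichment. Every listed difference has a p under 0.05, and how many others were examined is not known. In the authors' deposited table, 398 internal exon peaks were lower and 32 higher at a false discovery rate under 0.05, a share of 92.6% lower, against 71.6% of all listed peaks at that rate. With the median of the whole table subtracted, 68.2% lay below 0 (64.2% to 72.0%), against 50.0% of all peaks.

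**Figure D3:**
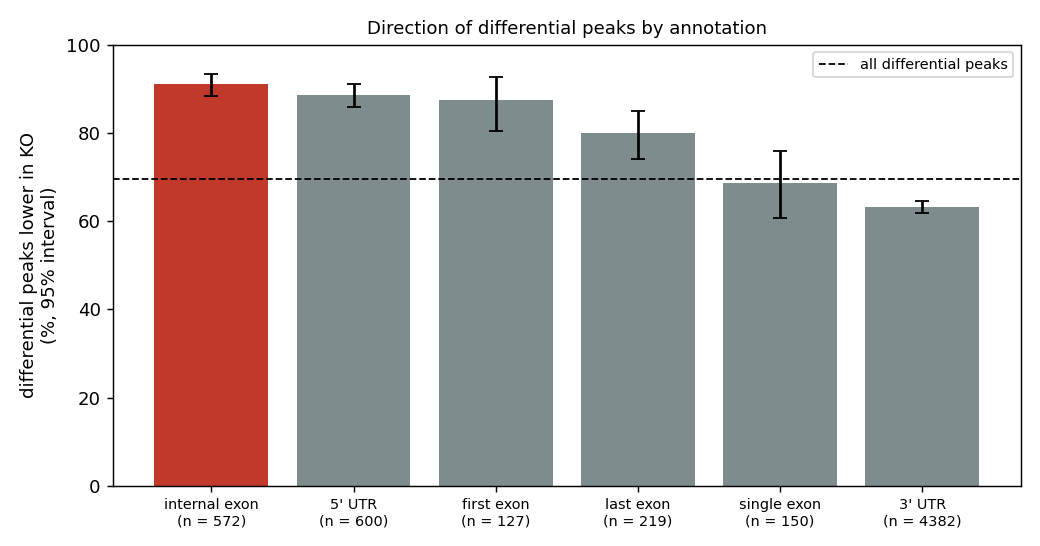
Share of differential peaks that were lower in KO (%, bars from 0, exact 95% binomial intervals) by annotation, with the share over all listed peaks as a dashed line and the number of peaks under each bar. Internal exon peaks (red) stand at 91.1%, 5′ UTR peaks at 88.7% and 3′ UTR peaks at 63.2%.

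The other annotation classes had smaller shares than internal exons. Lower in KO were 88.7% of 600 peaks in 5′ UTRs (85.9% to 91.1%), 87.4% of 127 in first exons (80.3% to 92.6%), 79.9% of 219 in last exons (74.0% to 85.0%), 68.7% of 150 in single-exon transcripts and 63.2% of 4382 in 3′ UTRs (61.8% to 64.6%), by the authors' deposited table. Before any split by peak p or input level, the interval of the internal exon peaks thus lies apart from those of last exons and 3′ UTRs. It overlaps those of 5′ UTRs and first exons. At the edge of the definition, 73.8% of 80 peaks in penultimate exons were lower in the authors' deposited table (62.7% to 83.0%), 88.2% of 110 in exon 2 (80.6% to 93.6%) and 93.9% of 410 in neither (91.1% to 96.0%). Penultimate exons were thus closer to last exons than to the other internal ones in this share.

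**Figure D4:**
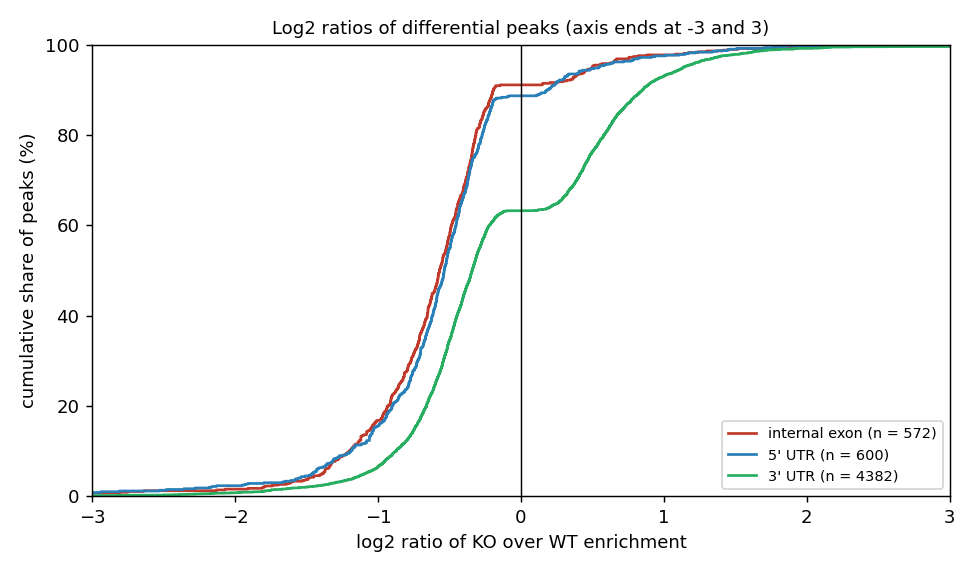
Cumulative share of differential peaks (%) by log2 ratio of KO over WT enrichment, for internal exons, 5′ UTRs and 3′ UTRs; the vertical line marks a ratio of 0. The curves of internal exons and 5′ UTRs cross that line at 91.1% and 88.7%, and the 3′ UTR curve crosses it at 63.2%.

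Direction moved with the strength of the peak and with the input level of the gene, so it was read within classes of both. When all differential peaks of the authors' deposited table were ordered by peak p and split into 5 equal classes, the internal exon peaks below 0 numbered 62 of 62, 119 of 119, 121 of 132, 105 of 125 and 114 of 134, from the lowest p to the highest. For 3′ UTR peaks of the authors' deposited table the shares in the same order were 96.5%, 85.0%, 61.6%, 39.9% and 26.2%. By mean input FPKM, from the lowest to the highest class, the internal exon share in the authors' deposited table was 89.0%, 95.9%, 92.1%, 89.6% and 80.0%, while that of 3′ UTR peaks was 66.9%, 80.3%, 71.9%, 63.9% and 36.5%. In every one of these 10 classes the internal exon share was the higher one, and the 2 intervals lay apart in all but the first class by p. Peaks in 5′ UTRs were close to internal exons: the shares lower in the authors' deposited table were 93.4%, 93.8%, 89.5%, 80.2% and 85.7% by class of p, and 91.5%, 94.0%, 91.9%, 88.7% and 75.7% by class of level. Their intervals overlapped those of internal exons in all 10 classes. For last exons the shares lower were 100%, 100%, 85.7%, 76.6% and 66.2% by class of p. By class of level they were 83.5%, 87.2%, 85.7%, 86.4% and 63.9%. With 14 to 85 last exon peaks per class, these intervals overlapped those of internal exons in all but the last class by p. Within the internal exons, the ratio itself moved with level: its median in the authors' deposited table was -0.88 in the lowest class (up to 1.68 FPKM) and -0.31 in the highest (from 21.5 FPKM).

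**Figure D5:**
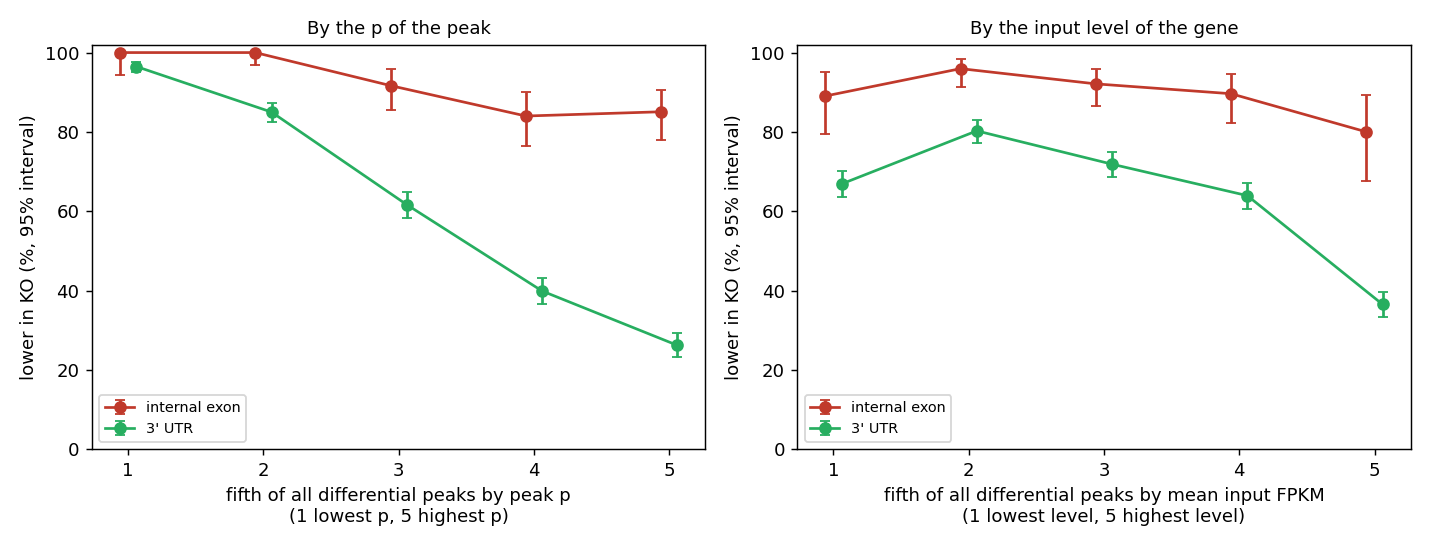
Share of differential peaks lower in KO (%, exact 95% binomial intervals) for internal exons (red) and 3′ UTRs (green), with all differential peaks split into 5 equal classes by the p of the peak (left) or the mean input FPKM of the gene (right). Internal exon peaks stay between 80.0% and 100% in every class, and 3′ UTR peaks go from 96.5% to 26.2% across the classes by p.

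By longest block, the share lower in the authors' deposited table went from 59.3% of 27 peaks with at most 100 bases (38.8% to 77.6%) to 95.7% of 163 above 400 and up to 800 bases and 31 of 31 above 1600 bases. The size of the difference did not follow the same order. The median ratio in the authors' deposited table was -0.56 up to 100 bases (-1.04 to 0.35) and -0.65 above 100 and up to 200 bases. It was -0.69 above 200 and up to 400 bases, -0.59 up to 800, -0.45 up to 1600 and -0.40 above 1600 bases. Of the 521 lower peaks, 450 met a peak in the KO list and all 521 one in the WT list. Of the 51 higher peaks, all met a peak in the KO list and 36 one in the WT list.

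The 8 lowest ratios, taken at a false discovery rate under 0.05 and with KO and WT input of 1 FPKM or more, under the same limits on gene assignment, ran from -2.13 to -1.49 in the authors' deposited table. Cwf19l2, a splicing-related gene, had -2.13 in the authors' deposited table, in a peak annotated to exon 9 of 18, at 1.95 FPKM in the KO input and 1.52 FPKM in the WT input. Its other differential internal exon peak, annotated to exon 5, had -0.63 in the authors' deposited table. Tmcc2 had -1.79 in exon 4 of 5 in the authors' deposited table, with 2.42-fold in the KO list and 28.6-fold in the WT list. Faap100, a subunit of the Fanconi anaemia core complex, had -1.70 in exon 2 of 9 and 1.37 in a 3′ UTR peak in the authors' deposited table. The others were Phactr4 (-1.62), Arhgap39 (-1.61), Taf3 (-1.60, a subunit of the general factor TFIID), Speg (-1.51) and Crybg3 (-1.49) in the authors' deposited table. These 8 peaks were mostly in genes of low level, between 1.28 and 5.19 FPKM in the KO input and between 1.12 and 6.30 FPKM in the WT input.

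The 8 highest ratios ran from 3.59 to 0.82 in the authors' deposited table. Tulp4, a tubby-like protein of ubiquitin ligases, had 3.59 there, a 12-fold higher enrichment in KO, in the penultimate exon on chromosome 17 from 6233405 to 6233825 (mm10). In the same exon, a second Tulp4 peak from 6232506 to 6232715 had -1.05, and a 3′ UTR peak had 2.16, in the authors' deposited table. Thrap3, a splicing and transcription coregulator, had 2.69 in the authors' deposited table, a 6.45-fold higher enrichment in KO. That peak lay in exon 4 of 11 on chromosome 4 from 126178145 to 126178504. A second Thrap3 peak, from 126176340 to 126178055 and annotated to the same exon, had 0.51, and the gene's 3′ UTR peak had -0.43, in the authors' deposited table. Thrap3 input was 11.4 FPKM in KO and 11.6 FPKM in WT. The remaining 6 were Bsn and Srp54b (both 1.93), Arid4b (1.30), Kri1 (1.14), Atf5 (1.08, a transcription factor of stress responses) and Incenp (0.82, a subunit of the chromosomal passenger complex) in the authors' deposited table. Srp54b, which encodes a subunit of the signal recognition particle, has near-identical neighbouring copies in the mouse, so its reads may be shared with them. Bsn also had a lower internal exon peak, in exon 6 of 12 at -0.35 in the authors' deposited table, beside the higher one in exon 4.

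Genes with differential peaks in both an internal exon and a UTR allow the 2 kinds of peak to be set side by side at the same transcript level. In 153 genes with both an internal exon and a 3′ UTR peak in the authors' deposited table, taking the median where a gene had several, the internal exon value was below 0 in 138 (90.2%, 84.3% to 94.4%) and the 3′ UTR value in 116 (75.8%, 68.2% to 82.4%). Both were lower in 109 genes and both higher in 8. In 29 genes the internal exon was lower and the 3′ UTR higher, and in 7 genes the reverse held, by the authors' deposited table. The 29 included Faap100 (-1.70 and 1.37), Upf3a (-1.37 and 0.73), Smg6 (-0.66 and 1.37) and Setd2 (-0.65 and 0.42), with the internal exon value given first, in the authors' deposited table. The 3′ UTR value of Setd2 is the median of peaks of opposite direction, at -0.235 and 1.07. Their false discovery rates in the authors' deposited table were 0.0891 and 0.0537. The 7 were Lrpap1, Nab1, Xpo6, Atf5, Kri1, Arid4b and Thrap3. The median difference, internal exon minus 3′ UTR, was -0.13 (-0.24 to -0.03) on the log2 scale in the authors' deposited table. In 37 genes with a 5′ UTR peak the internal exon value was below 0 in 33 and the 5′ UTR value in 35, and the median difference was 0.12 (-0.12 to 0.32) in the authors' deposited table.

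Input levels of the genes concerned were close in KO and WT. Over 399 genes with a differential internal exon peak and a mean of at least 1 FPKM, median input was 6.59 FPKM in KO and 6.19 FPKM in WT. The median difference in log2(FPKM + 1), KO minus WT, was 0.11, against 0.07 over all 3679 genes with a differential peak. It was 0.12 for the 367 genes with a lower internal exon peak and 0.01 for the 38 with a higher one. The same order held for peaks of any annotation, with 0.10 over 2633 genes with a lower peak and 0.01 over 1330 with a higher one. The part of this input difference in the peak ratios was not tested.

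Of the 50 genes listed for a very long internal coding exon, 26 had 40 differential internal exon peaks in the authors' deposited table, 38 lower and 2 higher in KO, with a median of -0.47. The direction was thus that of internal exon peaks in general (91.1% lower), and 25 of the 40 lay below the median of the whole table. The 2 higher ones were a peak of Mki67, the proliferation antigen Ki-67, at 0.65 with a false discovery rate of 0.0977, and one of Prrc2a, an m6A reader, at 0.20 in the authors' deposited table. In the authors' deposited table, Mki67 also had -1.40 and -0.63 elsewhere in the same exon, and Prrc2a had -0.44. Mki67 input was 5.29 FPKM in KO and 3.49 FPKM in WT. Kmt2d, a histone H3 lysine 4 methyltransferase, had 4 of them, all below 0 in the authors' deposited table, with ratios of -1.48, -1.23, -0.68 and -0.29. Setd2, which methylates histone H3 at lysine 36, had -1.06 and -0.24, and Son, a splicing cofactor, had -0.39 in the authors' deposited table.

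Of 37 listed genes that define macrophages or carry Toll-like receptor signals, 3 had an internal exon peak in KO (Irak1, Irf8 and Tnfaip3) and 2 in WT (Tank and Tnfaip3), which were 9.68% of those with any KO peak and 7.14% of those with any WT peak, beside 15.8% of all genes in KO and 15.4% in WT. The groups are small and the difference was not tested. Tnfaip3, the deubiquitinase A20 that restrains NF-kappaB, had 4.29-fold in KO and 8.16-fold in WT, and its differential peak had -0.27 with a false discovery rate of 0.0617 in the authors' deposited table. Irak2, a kinase of the same pathway, had -0.75 at an internal exon in the authors' deposited table, with 10.5 FPKM in the KO input and 11.1 FPKM in the WT input. It had no internal exon peak in either list, and the WT peak that spans the same bases was annotated to the 3′ UTR.

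Of 23 writers, erasers and readers of m6A, 5 had an internal exon peak in KO (Fto, Prrc2a, Virma, Ythdc2 and Zc3h13) and 4 in WT (Fmr1, Prrc2a, Virma and Zc3h13). These were 25.0% of the listed genes with any peak in either list, beside 15.8% of all genes in KO and 15.4% in WT. Zc3h13, a subunit of the writer complex, had peaks of 10.3-fold and 4.24-fold in KO and 1 peak of 16.9-fold in WT. Virma, another subunit of that complex, had up to 4.34-fold in KO and 4.70-fold in WT. Of 7 differential peaks in this group, 6 were lower in the authors' deposited table, and the median of all 7 was -0.39, against -0.40 for the whole table. Of 17 genes of the exon junction complex and its partners in nonsense-mediated decay, 3 had an internal exon peak in KO (Casc3, Upf2 and Upf3b) and 4 in WT (Pnn, Upf2, Upf3a and Upf3b). These were 18.8% of the listed genes with any KO peak and 33.3% of those with any WT peak, beside the same 15.8% in KO and 15.4% in WT over all genes. The 3 with a differential peak were lower in the authors' deposited table, Casc3 at -0.53, Smg6 at -0.66 and Upf3a at -1.37, beside 91.1% lower over all internal exon peaks. The listed input of Casc3 was only 0.061 FPKM in KO and 0.052 FPKM in WT, and Smg6 had no internal exon peak in either list.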

How the data were processed

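The authors deposited 1 peak list per genotype (IP against input of 1 library pair) with, per the file headers, a fold enrichment (a ratio) and a p-value per peak, and log10 p and false discovery rate as scores. The deposited differential table gives the log2 ratio of KO over WT, with its p-value and log10 false discovery rate, and the input FPKM of each gene. These are the authors' values. Tools named in the submitters' processing notes are edgeR, StringTie, ChIPseeker, HOMER, HISAT2 and fastp, and the build is mm10. Which program called the peaks is not given in these sources. Listed starts count from 0: 1 base further they met 1316 RefSeq gene starts in KO, against 147 as listed, so positions here are listed starts plus 1.

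Overlap used exonic blocks (1 shared base, strand ignored). Shares have exact (Clopper-Pearson) intervals and medians order-statistic intervals, both at 95%. Input was taken as log2(FPKM + 1), which understates low genes. Exons of 93.8% of KO and 94.2% of WT members could be named from the files; 33 differential members have no FPKM. Parsing and overlap were tested on simulated peaks. No column went unused for lack of a sample. Calculations ran in Python 3.11.15 with scipy 1.17.1, pandas 2.3.3 and numpy 2.4.6, and plots in matplotlib 3.10.9.

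Predicted genes and peaks assigned to another gene than that of the exon were left out of the named genes, which are the 8 highest enrichments with p of at most 1e-10 per list, the 8 lowest and 8 highest ratios, the 6 genes with the most peaks per list (more with ties), the 6 longest WT blocks, and, from all peaks, list members; Pcnt, Foxo3, Slfn5 and Chpf2 follow from the sequences, and other examples were chosen after their values were seen. The members and lists were chosen with earlier results of these data known. Exon lengths and motif shares over all peaks had been planned and need a genome, which was not used here, so the longest block took the place of exon length. Alternatives were stricter fold, p and false discovery rate, reciprocal overlap, assigned genes only, penultimate exons left out, centring, 1 peak per gene, another pseudocount and no FPKM filter.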

Additional observations from a re-analysis of the deposited data

How the results depend on the processing

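Of 50 alternative values, 20 moved by less than the main value's 95% interval (or, for counts, stayed within 1.5 times) and 30 moved further, and the ratio stayed below 0 and the input difference above 0 in each. The order of internal exons and all peaks in KO sharing (57.8% against 61.6%) did turn, to 79.5% against 76.4% at a peak false discovery rate under 0.05 and 98.4% against 94.4% at p of at most 1e-10. With only enrichments of at least 4-fold there were 851 internal exon peaks in KO and 748 in WT (9.99% of such KO peaks and 9.32% of such WT peaks), sharing was 62.2% in KO and 69.4% in WT, and the median longest block was 481 bases in KO and 609 bases in WT. With p of at most 1e-10 there were 376 in KO and 424 in WT (7.31% of such peaks in KO and 8.25% in WT), sharing was 98.4% in KO and 97.2% in WT, and the longest block 750.5 bases in KO and 841 bases in WT. The share of the list was 10.4% in KO and 10.6% in WT with exons of the assigned gene only, and 10.6% in KO and 10.7% in WT without penultimate exons. Requiring 50% of both peaks gave sharing of 29.4% in KO and 33.8% in WT; members with a peak false discovery rate under 0.05 gave 79.5% in KO and 75.4% in WT. The differential share lower in KO was 93.4% at p under 0.001 (median ratio -0.63), 93.9% without penultimate exons, and 68.2% with the table median subtracted (median -0.17). The input difference was 0.13 with a pseudocount of 0.1. The cause of these shifts was not tested.

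Longest blocks, peak false discovery rates and 1 peak per gene were added after seeing the data. Exon lengths and GGACT or GGAC shares over all peaks were not run. Depth is unknown and each group has 1 library, so no result has a replicate check and leaving out a library leaves no value. No paired analysis was possible because no result comes from a test between groups.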
